A study of Rattus norvegicus with 4 samples.

Results

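Collagens, laminins and integrins, the matrix proteins that cells attach to and the receptors they attach with, were read in astrocytes that had grown with or without neurons. Of 41012 probes on the array that were not controls, 98 carried a name of the form Col, Lam or Itg with a chain number or letter. These probes stood for 65 of 35658 names, without the leukocyte integrins Itgam and Itgb2, which serve as microglial markers. Among the 65 names were 29 collagens, 10 laminins and 21 integrins, and 5 were genes that only share the name. Names were those of the array design, and for 38 of the 65 genes a single probe gave the reading.

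The astrocytes were primary cells from the cortex of Wistar rats at postnatal day 1, and the neurons were mouse hippocampal cells of embryonic day 18 plated on top of them. The RNAs compared were the whole co-culture (CC), the co-culture after a cold jet of buffer had detached the neurons (CC-CJ), and astrocytes cultured alone that had received the same jet (AA-CJ). Each of 4 arrays was read in 2 colours and held CC-CJ in Cy3, set against AA-CJ in Cy5 on 2 arrays and against CC in Cy5 on the remaining 2. No genetic change or drug distinguished the groups, all wells had been coated with poly-lysine and collagen, and the days in culture behind the array RNA were not given in the sources used here. Mouse mRNA was read by rat probes, so that a value of CC or CC-CJ may hold transcripts of both species. All arrays shared 1 slide. There was no dye swap, which means that within an array dye and RNA cannot be told apart, whereas CC and AA-CJ were both in Cy5. The pools of animals behind the 2 replicates differed according to the methods of the study, and 2 arrays per comparison limit the precision of every value below.

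Collagens are triple helices of 3 alpha chains. Types I, II, III, V and XI form fibrils, type IV forms the sheet of the basement membrane and type VIII a hexagonal network. Laminins are cross-shaped heterotrimers of an alpha, a beta and a gamma chain that organise the basement membrane, which in brain lies beneath the meninges and around vessels, where astrocyte endfeet contact it. Integrins are receptors of 1 alpha and 1 beta chain, and the alpha chain sets what is bound. The alpha chains Itga1, Itga2, Itga10 and Itga11 pair with Itgb1 to bind collagens, Itga3, Itga6 and Itga7 bind laminins, and Itgav and Itga5 bind proteins with an RGD motif such as fibronectin and vitronectin.

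The results turned on the collagen receptor chain Itga1, its partner Itgb1 and the fibrillar collagen chain Col1a2, whose upstream sequences are shown because the data bear on how much transcript each gene yielded. For each gene the 250 bases before its RefSeq start were taken from build GRCr8, with capitals for matches on either strand to the CCAAT box, to the TATA-box letters TATAAA and to the GC-box letters GGGCGG. The marked matches do not overlap one another.
Itga1, chr2:48545284-48545533, minus strand: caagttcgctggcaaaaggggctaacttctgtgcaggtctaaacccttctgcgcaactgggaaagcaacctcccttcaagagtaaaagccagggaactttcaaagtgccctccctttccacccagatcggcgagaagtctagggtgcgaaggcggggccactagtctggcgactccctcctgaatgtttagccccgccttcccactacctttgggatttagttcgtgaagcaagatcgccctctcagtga
Itgb1, chr19:73602027-73602276, plus strand: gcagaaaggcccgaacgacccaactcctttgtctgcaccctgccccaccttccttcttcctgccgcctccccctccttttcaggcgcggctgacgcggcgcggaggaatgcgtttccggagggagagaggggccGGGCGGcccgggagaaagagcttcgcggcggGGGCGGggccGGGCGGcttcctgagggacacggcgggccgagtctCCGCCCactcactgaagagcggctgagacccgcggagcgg
Col1a2, chr4:33518307-33518556, plus strand: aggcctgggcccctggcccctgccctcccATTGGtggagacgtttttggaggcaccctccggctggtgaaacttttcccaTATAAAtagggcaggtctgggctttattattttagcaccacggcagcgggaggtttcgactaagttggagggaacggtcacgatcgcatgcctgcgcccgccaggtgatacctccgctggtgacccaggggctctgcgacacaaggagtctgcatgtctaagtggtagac
The Itga1 stretch held none of these letters, the Itgb1 stretch held GGGCGG or its reverse 4 times, and the Col1a2 stretch held 1 reversed CCAAT and 1 TATAAA. GC bases made up 54.4% of the Itga1 stretch, 71.2% of that of Itgb1 and 58.4% of that of Col1a2. Among 33469 promoters of this length, GGGCGG was found in 30.5%, CCAAT in 34% and TATAAA in 12.9%. Of the 45 collagen, laminin and integrin genes with an entry, 24 held GGGCGG, 10 held CCAAT and 4 held TATAAA. A match is a description of the letters and was not tested against the array values.

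Across these families 2 genes passed the test, 1 in each of the 2 comparisons made within arrays. Itga1 in CC-CJ was 1.74-fold above its level in AA-CJ, and Col1a2 in CC-CJ was at 0.665 of its level in CC. All values are log2 ratios of the first RNA over the second after loess normalization, positive where the first is higher, and tests are those of limma over 21326 genes with Benjamini-Hochberg adjustment at a threshold of 0.05. A gene was tested where at least 1 RNA gave a signal clear of background on all its arrays. This held for 46 of the 65 genes, among them 22 collagens, 8 laminins, 12 integrins and 4 of the genes that only share the name. In CC-CJ versus AA-CJ, 1 of the 46 was higher, where 1.87% of all genes were, and none was lower, where 1.13% were. In CC-CJ versus CC, none was higher against 0.0985% of all genes, and 1 was lower against 2.24%. In CC versus AA-CJ none passed in either direction, against 2.56% of all genes higher and 0.0797% lower. At an unadjusted p under 0.05 the counts were 7, 10 and 9 of the 46 in these 3 comparisons, or 15.2%, 21.7% and 19.6%, against 22.6%, 16.9% and 17.8% of all genes. With 1 gene called of 46, the shares lie close to those of all genes.

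By family, after loess, the collagens were the group whose median moved most between the comparisons. Their median difference was 0.07 for CC-CJ over AA-CJ, -0.12 for CC-CJ over CC and 0.21 for CC over AA-CJ, where the medians of all genes were -0.02, -0.02 and 0.00. The collagen medians depended on single arrays. The first was 0.11 without replicate 1 and 0.03 without replicate 2 of the AA-CJ arrays, the second -0.20 without replicate 1 of the CC arrays, and the third 0.13 without replicate 2 of the CC arrays. With local regression on intensity and location the second was -0.04 and the third 0.14. The laminin medians were -0.11, -0.01 and 0.02, and the integrin medians 0.04, 0.04 and 0.02. The laminin median of CC-CJ over AA-CJ was -0.06 without replicate 1 of the AA-CJ arrays. Of the 21 collagens measured in both RNAs, 12 were higher in CC than in AA-CJ with no overlap between the arrays, or 57.1%, against 26.2% of all genes, and 2 were lower. The integrins were split there, with 5 of 12 higher, or 41.7%, and 4 lower, or 33.3%, against 24.1% of all genes lower. In CC-CJ versus CC, 11 of 21 collagens were lower on both arrays, or 52.4%, against 38.3% of all genes, and 4 were higher. Of the 12 integrins, 5 were higher on both and 5 were lower on both, or 41.7% each, against 26.8% and 38.3% of all genes. In CC-CJ versus AA-CJ, 10 of 21 were higher on both arrays, or 47.6%, against 29.4% of all genes, and 2 were lower. Of the 8 laminins, 5 were lower on both, or 62.5%, against 36.2%, and 2 were higher. The 3 comparisons share the CC-CJ samples or arrays, so that these counts are not independent of each other. Family shares are over genes measured in both RNAs, whereas the shares of all genes are over the 21326 tested, without that filter. A gene counts as measured in an RNA where a probe of it was clear of background on at least 1 array. Col6a3 and Col9a3, both among the 12 collagens higher in CC than in AA-CJ, were admitted to the test through CC alone. Col9a3 is also among the 11 lower in CC-CJ than in CC. For them the filter favoured the direction that was counted. With each array centred on its median in place of loess, the collagen median of CC-CJ over CC turned to 0.02 and the laminin medians of CC-CJ over AA-CJ and over CC to 0.14 and 0.33, where the medians of all genes were 0.24 and 0.25.

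**Figure D1:**
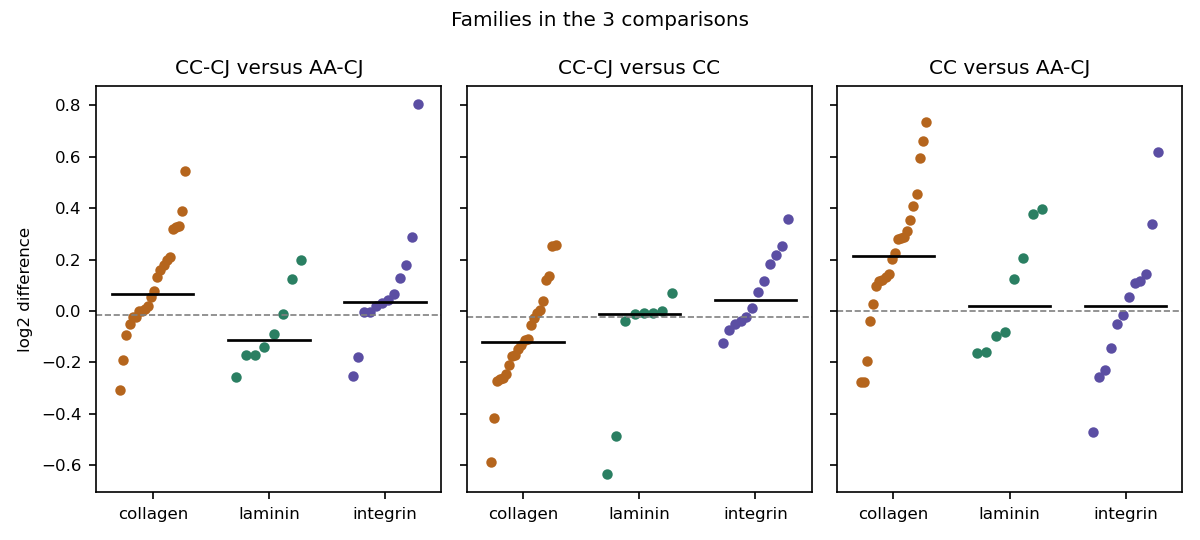
Log2 difference (vertical axis) of each tested collagen, laminin and integrin gene in the 3 comparisons. Each point is 1 gene, ordered by value within its family, the black line is the family median, and the dashed line is the median of all 21326 genes. The collagen median lies at 0.21 in CC versus AA-CJ, and the highest integrin in CC-CJ versus AA-CJ is Itga1 at 0.80.

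Among the fibrillar collagens, Col1a2, the alpha 2 chain of type I, was lower in CC-CJ than in CC. Its log2 channel levels were 14.32 and 14.42 in the 2 CC samples, 13.84 and 13.73 in CC-CJ on the same arrays, 13.91 and 13.80 in CC-CJ on the other arrays, and 14.11 and 14.20 in AA-CJ. All 4 CC-CJ levels lay below those of both other RNAs. The CC-CJ over CC ratios were -0.48 and -0.69, with a mean of -0.59 (95% interval -0.82 to -0.36, n = 2 arrays, adjusted p = 0.0316 from limma). Against AA-CJ the ratios were -0.20 and -0.41 and the mean was -0.31 (adjusted p = 0.13 from limma). CC-CJ was in Cy3 in both comparisons, so that dye and RNA cannot be told apart there. In the comparison that shares 1 dye, CC over AA-CJ was 0.28 (95% interval -0.04 to 0.61, adjusted p = 0.34 from limma). Both probes of Col1a2 (chromosome 4 in rn4, bases 29425301 to 29425360 and 29428206 to 29428265) gave the same sign, with -0.47 and -0.71 for CC-CJ over CC. Col1a2 did not pass in limma with replicate 2 of the CC arrays left out, at -0.48 and an adjusted p of 0.361, nor with the signals as Feature Extraction processed them, at -0.59 and 0.2. It also missed the threshold at an offset of 16 in normexp (limma, adjusted p = 0.0703) and with the replicate number as a block (limma, adjusted p = 0.059).

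The other type I chain, Col1a1, had a smaller difference of the same sign. Its CC-CJ over CC ratios were -0.14 and -0.20, mean -0.17 (limma, adjusted p = 0.371), and its CC-CJ over AA-CJ ratios were 0.27 and 0.08. Col3a1, the chain of type III fibrils, had ratios between -0.10 and 0.05 on all 4 arrays. Its levels ran from 14.70 to 14.82 over the 8 channels, and the 95% interval of CC-CJ minus AA-CJ was -0.20 to 0.20. Level differences between genes are not compared here, since each probe has its own brightness.

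The type V chains, which set the diameter of type I fibrils, did not pass, and 2 of the 3 had their highest levels in whole co-culture. Col5a2 had levels of 12.57 and 12.53 in AA-CJ, 12.75 to 12.96 in the 4 CC-CJ channels, and 13.24 and 12.99 in CC. The 3 RNAs did not overlap for Col5a2, and CC minus AA-CJ was 0.60 (95% interval 0.32 to 0.87, adjusted p = 0.0564 from limma). Both its probes and another probe described as this chain but named otherwise gave 0.58, 0.61 and 0.57. Col5a1 had levels of 9.02 and 8.35 in AA-CJ, 9.22 and 9.60 in CC, and 8.87 to 9.13 in CC-CJ. The difference of 0.73 between CC and AA-CJ was the highest among the collagens (adjusted p = 0.246 from limma), but its 2 AA-CJ arrays disagreed, with CC-CJ over AA-CJ ratios of -0.15 and 0.78. Col5a3 had CC-CJ over AA-CJ ratios of 0.34 and 0.31 (mean 0.32, adjusted p = 0.0915 from limma).

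Col2a1, the chain of cartilage fibrils, was well above background in CC and CC-CJ but not in AA-CJ, so that only a bound could be given there. By this bound CC was at least 1.56-fold and CC-CJ at least 1.31-fold above AA-CJ. Neither passed, with adjusted p-values of 0.0557 and 0.0704 from limma. The bound does not allow for the spread between arrays, where the 95% intervals were log2 0.36 to 0.97 and 0.17 to 0.61. In such a bound the mean of the brighter RNA is divided by whichever is higher in the dim RNA, the signal of the probe itself or the lowest signal that counts as detected, and it is open to dye bias between Cy3 and Cy5. For Col2a1 against AA-CJ, the values passed with the deposited processed values, at 0.92 for CC and 0.66 for CC-CJ. Over the alternatives tried, CC passed in 7 of 16, with values from 0.29 up, and CC-CJ in 3 of 17, from 0.16 up. A second Col2a1 probe was clear of background in no channel and was not tested. It read -0.08 for CC and -0.07 for CC-CJ over AA-CJ. Over the 6 fibrillar chains measured in both RNAs, all 6 differences of CC over AA-CJ were above 0 after loess. For 5 there was no overlap between arrays, where 26.2% of all genes tested were higher in this way. The median of the 6 was 0.32, and none of them passed the test. With median centring in place of loess, Col3a1 was at -0.33 and Col1a2 at -0.03, and the rest stayed above 0. The median of all genes was then -0.13.

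Among the network collagens, Col8a1, a short chain that endothelial and other cells lay down, came closest to the threshold. Its levels were 11.51 and 11.44 in AA-CJ, 11.85 and 11.97 in CC, and 11.87, 12.17, 11.90 and 12.19 in the 4 CC-CJ channels. Both AA-CJ levels lay below those of every CC and CC-CJ channel. The CC-CJ over AA-CJ ratios were 0.36 and 0.73, with a mean of 0.54 (95% interval 0.28 to 0.81, adjusted p = 0.0529 from limma). With only the 2 arrays of the comparison in the fit, the adjusted p was 0.0373. A second probe described as Col8a1 but not named so gave -0.03 and 0.92 on the same arrays, so that the 2 probes disagreed on replicate 1. After median centring Col8a1 was at -0.04, below the median of all genes of 0.24 and above the median of -0.67 of the brightest of 10 equal groups of genes, to which it belongs.

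The basement membrane chains of type IV did not pass in any comparison. Col4a2 had CC-CJ over AA-CJ ratios of 0.04 and 0.36 and CC-CJ over CC ratios of 0.19 and -0.41, so that the latter pair of arrays differed in sign. Col4a5 had a mean of 0.16 (adjusted p = 0.31 from limma) for CC-CJ over AA-CJ. No probe carried the name Col4a1. The fibril-associated chains Col14a1 and Col22a1 had CC-CJ over CC values of 0.25 and 0.26, each with 1 array near 0 and the other at 0.48 and 0.42. Col16a1, of the same class, had ratios of -0.17 and -0.32 there and 0.06 and 0.36 against AA-CJ. The beaded-filament chains Col6a1 and Col6a2 were close to 0 in CC-CJ versus AA-CJ, at 0.02 and 0.01, and at -0.26 and -0.11 in CC-CJ versus CC. The signal of Col6a3 was above background on both arrays in CC and not in CC-CJ, which gave a bound of at least 1.16-fold (adjusted p = 0.268 from limma). None of these chains passed the test.

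**Figure D2:**
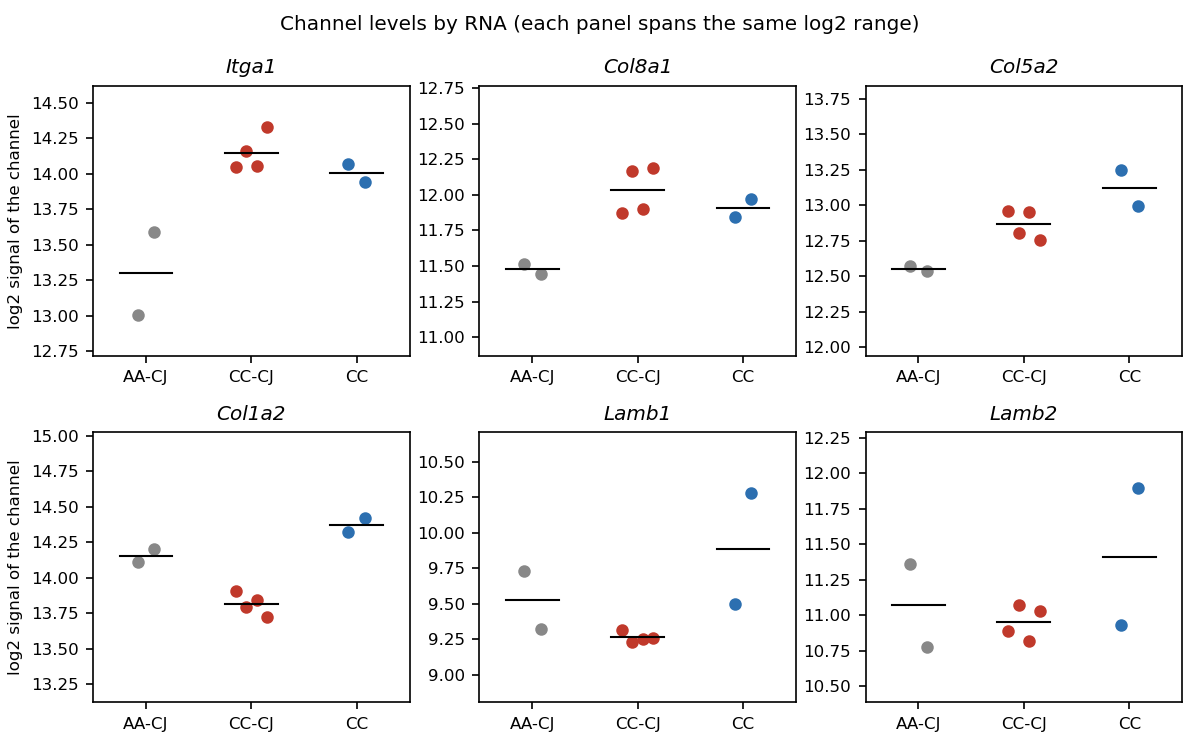
Log2 signal of each channel (vertical axis, the same span in every panel) for 6 genes in AA-CJ, CC-CJ and CC. Each point is 1 channel of 1 array, and the line is the mean over 2 channels for AA-CJ and CC and 4 for CC-CJ. Itga1, Col8a1 and Col5a2 are lowest in AA-CJ, Col1a2 is lowest in CC-CJ, and in Lamb1 and Lamb2 the CC sample of replicate 2 stands apart.

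No laminin chain passed in limma in any comparison, with 0, 1 and 0 of 8 at an unadjusted p under 0.05, and the lowest values were those of 2 beta chains. Lamb1, the beta chain of the most widespread laminins, had levels of 9.5 and 10.28 in CC, 9.25 and 9.26 in CC-CJ on those arrays, and 9.73 and 9.33 in AA-CJ. Its CC-CJ over CC ratios were -0.24 and -1.03, with a mean of -0.63 (95% interval -1.07 to -0.20, adjusted p = 0.162 from limma). Lamb2, a beta chain of synapses and vessels, had levels of 10.93 and 11.89 in CC, 10.82 and 11.03 in CC-CJ on those arrays, and 11.36 and 10.78 in AA-CJ. Its ratios to CC were -0.11 and -0.86 (adjusted p = 0.331 from limma). For both genes the CC sample of replicate 2 was the highest of all, and the AA-CJ sample of replicate 1 was the second highest. Without replicate 1 of CC-CJ versus CC, Lamb1 was at -1.03 (limma, adjusted p = 0.0129), in a fit where the lone array is assumed to vary like the others.

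The remaining laminin chains lay nearer to 0. The alpha chains Lama2 and Lama5 were at 0.12 and 0.20 in CC-CJ over AA-CJ, and Lama3 was at -0.01. Lamb3 had ratios of -0.16 and -0.18 to AA-CJ and of -0.01 on both arrays to CC. The gamma chains Lamc1 and Lamc3 were at -0.14 and -0.17 in CC-CJ over AA-CJ, with the same sign on both arrays. On the CC arrays, Lamc3 in CC-CJ did not clear the background. The 4 probes of Lama2 gave values from -0.06 to 0.56 in CC-CJ over AA-CJ, so that its mean hides 1 probe that stood apart.

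**Figure D3:**
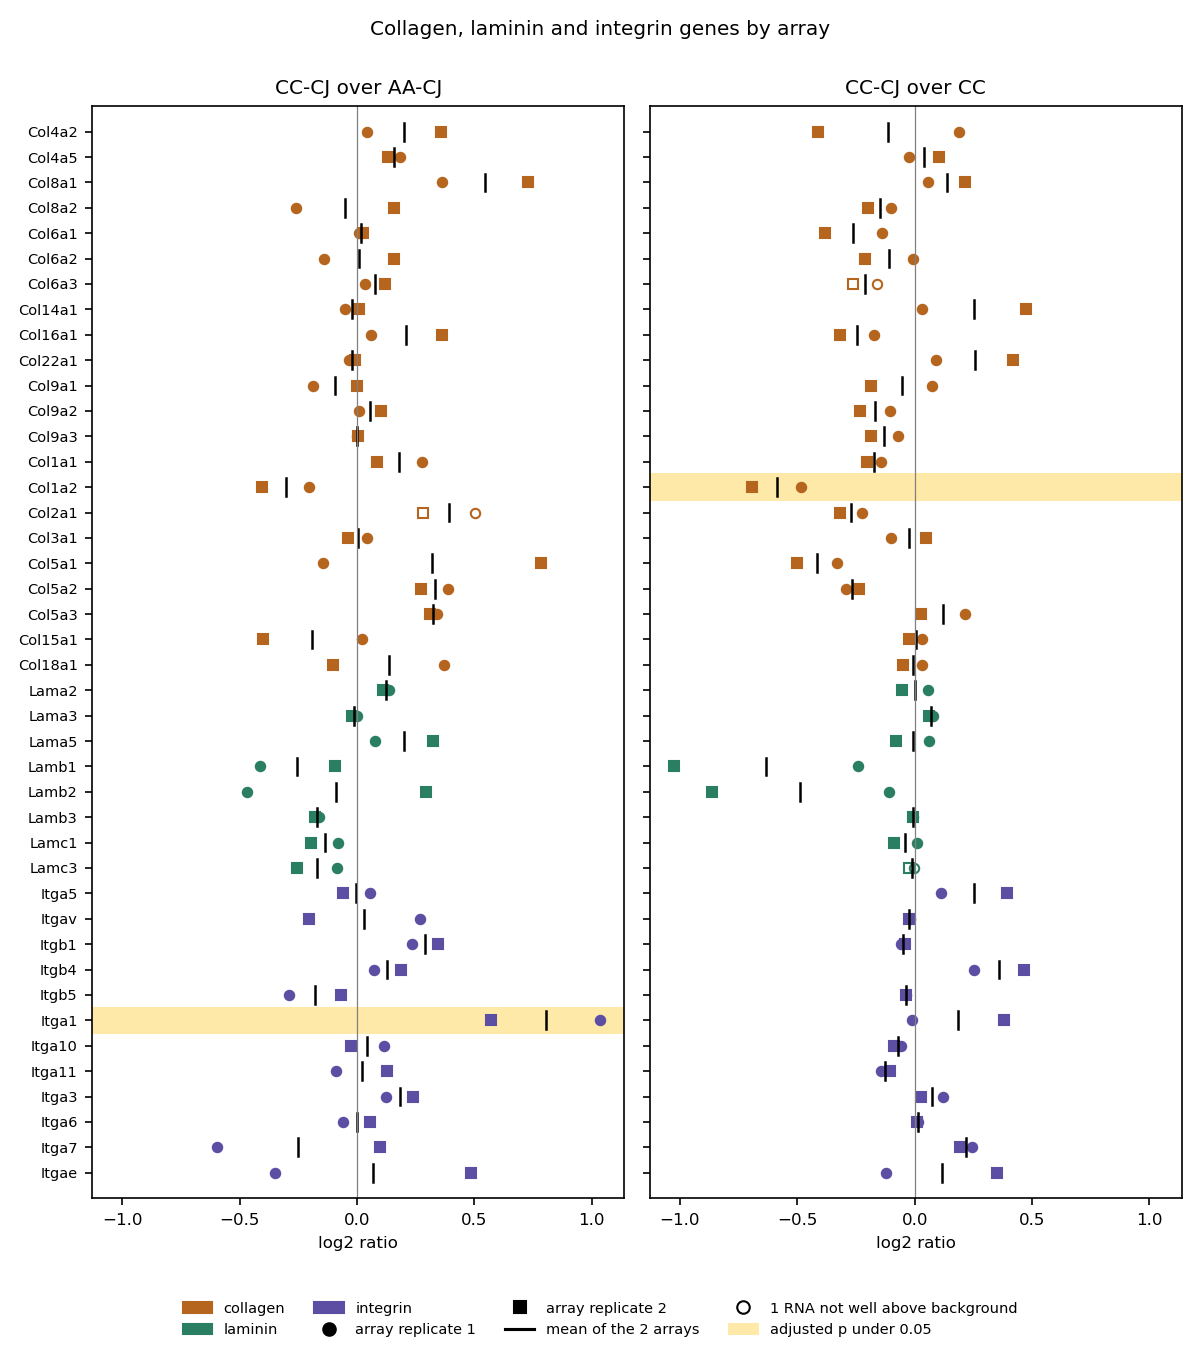
Log2 ratio (horizontal axis) of each of the 42 tested collagen, laminin and integrin genes for CC-CJ over AA-CJ and CC-CJ over CC. Circles and squares are the arrays of replicates 1 and 2, the black tick is their mean, open symbols mark genes with 1 RNA not well above background, and shaded rows passed the test. The shaded rows are Itga1, with ratios of 1.04 and 0.57, and Col1a2, with ratios of -0.48 and -0.69.

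Among the receptors, Itga1, the alpha chain of a receptor for collagens and laminins, was higher in astrocytes from co-culture. Its levels were 13.01 and 13.59 in AA-CJ, 14.05 and 14.16 in CC-CJ on the same arrays, 14.05 and 14.33 in CC-CJ on the other arrays, and 14.07 and 13.95 in CC. Both AA-CJ levels lay below all others. The CC-CJ over AA-CJ ratios were 1.04 and 0.57, with a mean of 0.80 (95% interval 0.47 to 1.14, n = 2 arrays, adjusted p = 0.0415 from limma). Between CC-CJ and CC the ratios were -0.01 and 0.38, with a mean of 0.18 and an interval of -0.15 to 0.52. In the comparison that shares 1 dye, CC exceeded AA-CJ by 0.62 (95% interval 0.14 to 1.1, adjusted p = 0.186 from limma). The single probe of Itga1 spans chromosome 2 of rn4 from 47107893 to 47112038, and no spot of any member was saturated.

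The direction of Itga1 depended on the correction for brightness. Before loess, ratios fell from a median of 0.87 in the dimmest of 10 equal groups of genes to -0.67 in the brightest group, to which Itga1 belongs. After median centring alone its CC-CJ over AA-CJ value was -0.03, which lay 0.65 above the median of that group. In CC over AA-CJ, where the medians of the 10 groups lay between -0.27 and -0.05, Itga1 was at 0.34 after median centring. With replicate 1 of the AA-CJ arrays left out, Itga1 was at 0.57 (limma, adjusted p = 0.169). With the signals as Feature Extraction processed them the value was 0.74 and the adjusted p 0.165. At values of 0.80, the adjusted p from limma was 0.0526 without background correction, 0.0674 with a normexp offset of 16 and 0.104 with the replicate number as a block.

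Itgb1, the beta chain that pairs with Itga1, was read by probes that disagreed. As a mean over its 2 probes, the CC-CJ over AA-CJ value was 0.29 (adjusted p = 0.102 from limma). The probe designed on a cDNA clone, on chromosome 19 of rn4 from 58600532 to 58600591, had ratios of 0.93 and 0.56 and a mean of 0.75. The probe designed on the RefSeq transcript, from 58611137 to 58611196, had ratios of -0.46 and 0.13 and a mean of -0.17. Tested probe by probe, the first passed with an adjusted p of 0.0246 from limma and the second had 0.531. With Itga1, this made 2 of 68 member probes higher, where 2.07% of all probes were. Another probe, designed on a consensus of transcript reads and described as integrin beta 1 without its symbol, had ratios of 0.85 and 0.45 (mean 0.65, adjusted p = 0.0357 from limma). So 2 of the 3 probes for Itgb1 passed against AA-CJ, with the higher level in CC-CJ, where dye and RNA cannot be told apart. In CC-CJ over CC they had means of 0.29 and 0.16, and that on the RefSeq transcript had -0.39. In CC over AA-CJ, which shares 1 dye, the clone, consensus and RefSeq probes were at 0.46, 0.49 and 0.22. None passed there (limma, adjusted p = 0.207, 0.187 and 0.618). After median centring, Itgb1 was at -0.15 in CC-CJ over AA-CJ, above the median of -0.41 of its brightness group. Which transcripts each probe reads, in rat or in mouse, could not be settled, as probe sequences were not used here.

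**Figure D4:**
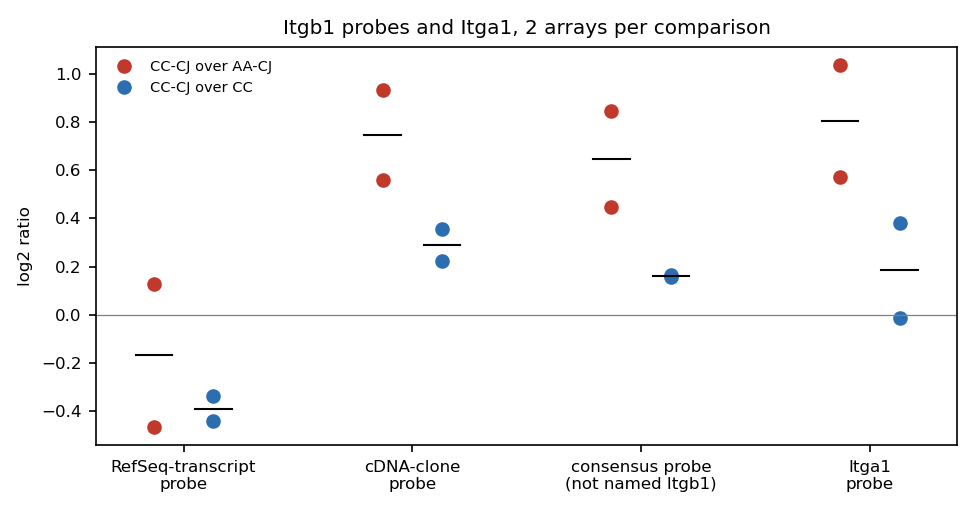
Log2 ratio (vertical axis) on each array for the 3 probes that read Itgb1 and for the probe of Itga1. Each point is 1 array, red for CC-CJ over AA-CJ and blue for CC-CJ over CC, and the black line is the mean of the 2 arrays. The cDNA-clone and consensus probes lie at means of 0.75 and 0.65 in CC-CJ over AA-CJ, near Itga1 at 0.80, and the RefSeq-transcript probe at -0.17.

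The other integrin chains did not pass in any comparison. The collagen-binding Itga10 and Itga11 were at 0.04 and 0.02 in CC-CJ over AA-CJ, with 95% intervals of -0.15 to 0.24 and -0.19 to 0.23. Of the laminin-binding chains, Itga3 was at 0.18, Itga6 at -0.00 and Itga7 at -0.25 there. Itga7 had ratios of -0.60 and 0.10 to AA-CJ and of 0.24 and 0.19 to CC, and CC lay 0.47 below AA-CJ (95% interval -0.99 to 0.06). Of the RGD-binding chains, Itgav had ratios of 0.27 and -0.21 to AA-CJ and Itga5 had 0.11 and 0.39 to CC. Itgb4, which pairs with Itga6 at hemidesmosomes, had the highest integrin value in CC-CJ over CC, with ratios of 0.25 and 0.46 (mean 0.36, adjusted p = 0.125 from limma). Itgb5 was at -0.18 in CC-CJ over AA-CJ.

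The 4 tested genes that only share the name lay between -0.19 and 0.01 in CC-CJ over AA-CJ and did not pass. They were Col4a3bp, a ceramide transfer protein, the integrin-tail binding protein Itgb1bp1, the centromere protein Itgb3bp and the translation factor Itgb4bp. No probe that carried the name passed the filter for 19 members, among them the collagens Col4a4, Col7a1, Col11a1 and Col17a1 and the integrins Itga2, Itga4, Itga8, Itgb3, Itgb6 and Itgb8. Another 34 probes were described as chains of these families but carried no such symbol. Of these, 23 were tested, and the Itgb1 probe was the only one that passed in any comparison. They included 3 probes for Col11a1, at -0.10 to 0.18 in CC-CJ over AA-CJ, and 2 for Itga8, at -0.05 and 0.11, so that these 2 chains were read above background by probes outside the name rule. Among the 18 genes with more than 1 tested probe, the values of the probes spanned a median of 0.11 in CC-CJ over AA-CJ and 0.16 in CC-CJ over CC, and in 6 and 8 genes the probes differed in sign.

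In the pathway around these proteins, 3 of 38 tested genes were higher in astrocytes of co-culture than in those grown alone, where 1.87% of all genes were. P4hb, the beta subunit of the prolyl hydroxylase that stabilises the collagen helix, was higher by 0.65, with ratios of 0.60 and 0.70 (adjusted p = 0.0171 from limma). It was also 0.61 higher in CC than in AA-CJ, with an adjusted p of 0.0499. P4hb was 1 of 19 tested genes of collagen processing, whose values in CC-CJ over AA-CJ ran from -0.30 to 0.65 with a median of 0.03. The alpha subunits P4ha1, P4ha2 and P4ha3 of the hydroxylase were at -0.30, -0.28 and -0.04 there, and none of them passed. Vtn, which encodes the integrin ligand vitronectin, was higher by 0.65 in CC-CJ (adjusted p = 0.018 from limma) and by 0.67 in CC, as 1 of 8 partners of the basement membrane with a median of 0.05. Ilk, which links integrin beta tails to actin, was higher by 0.47 (adjusted p = 0.0373 from limma), as 1 of 11 adaptors with a median of -0.02. For Ilk, CC over AA-CJ was 0.28 and did not pass (adjusted p = 0.256 from limma). Its CC-CJ over CC ratios were 0.20 and 0.17. In CC-CJ versus CC no gene of the 38 passed (limma), with 7 at an unadjusted p under 0.05, where 16.9% of all genes were. In CC-CJ versus AA-CJ this count was 13 of 38, where 22.6% of all genes were.

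Markers of other cells moved with some of these values. In CC-CJ versus CC, where Col1a2 fell, the fibroblast and meningeal marker Dcn fell by 0.77 (adjusted p = 0.00566 from limma), and it was 0.66 higher in CC than in AA-CJ. Dcn was 1 of 4 tested markers of these cells to pass there, and Pdgfra, Tbx18 and Twist1 were at -0.38, -0.00 and -0.08. In CC over AA-CJ these 3 were at 0.59, 0.03 and -0.01 and did not pass. The 4 tested pericyte and smooth muscle markers did not pass in any comparison. Their summed signal was 4498 to 5258 in CC, 4907 to 5164 in CC-CJ and 4940 to 5656 in AA-CJ. In CC-CJ versus CC, 7 of 9 neuronal markers fell, as did 2 of 4 microglial markers, Aif1 and Tyrobp, by 0.53 and 0.74. Of 5 oligodendrocyte markers 2 fell, Mag and Sox10, by 0.82 and 1.12. The summed signal of the 4 fibroblast and meningeal markers tested, of 8 on the array, was 2245 to 2271 in CC, 1612 to 1988 in CC-CJ and 1807 to 1906 in AA-CJ, with Lum, Slc6a13, Aldh1a2 and Dpt above background in none of them. Beside Itga1, the neuronal markers Dcx, Gap43 and Mapt were higher in CC-CJ over AA-CJ, 3 of 9 in all, as was 1 of 4 microglial markers, Tyrobp, by 0.77 (adjusted p = 0.00998 from limma). Summed neuronal signal was 7923 to 8334 in CC-CJ, 8444 to 8933 in AA-CJ and 18238 to 19008 in CC. Of the endothelial markers, Tek, Tie1, Flt1, Cldn5 and Esam were above background in no RNA, and of 11 astrocyte markers, 10 to 11 were above background on all arrays of each RNA and none passed in limma, with 2, 0 and 2 of 11 at an unadjusted p under 0.05 in the 3 comparisons. Summed microglial signal was 520 to 582 in CC-CJ, 413 to 503 in AA-CJ and 783 to 817 in CC, with Cx3cr1 above background in none, and that of 5 oligodendrocyte markers was 902 to 986, 767 to 1030 and 1260 to 1728 in the same order. The part of these cells in the results was not tested, and in such mixed RNA fewer cells of a type and less mRNA per cell cannot be told apart.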

How the data were processed

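RNA of co-culture before and after cold jet and of astrocytes alone was hybridized to 4 rat whole-genome arrays of Agilent on 1 slide, 2 arrays per comparison. The authors deposited scanner intensities on a linear scale per spot and dye, written by Feature Extraction 9.5.1.1 with positions on rn4, beside log10 ratios of Cy5 over Cy3. They also deposited a table of processed values for the same spots, taken here as log2 ratios of Cy5 over Cy3 because, with the sign turned, it correlated with the ratios computed here at 0.93 to 0.973 per array over probes, which are not independent replicates. Its scale and centring were not given in the sources used here, and its column medians were 0.01, 0.00, -0.02 and -0.01. The study names OLIN and OSLIN for normalization. The log10 ratios were not used.

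Intensities were corrected by normexp (offset 50) and normalized by loess on brightness within each array (span 0.3) in R 4.3.3 with limma 3.58.1, without control spots and without the 121 to 179 spots per array with outlier marks. Of 41012 probes, 24881 were kept because at least 1 RNA was marked as clear of background on each of its arrays, with 50.3% to 62.6% of probes above it per channel. The value of a gene is the mean over its kept probes. lmFit and eBayes were fitted over all 4 arrays with 1 coefficient per comparison (2 residual and 4.67 prior degrees of freedom), and CC versus AA-CJ is the difference of the coefficients. p-values were adjusted over 21326 genes. They rest on 1 estimate of spread per gene, pooled over both pairs of arrays and moderated by eBayes toward that of all genes. Bounds use channel levels after Aquantile scaling. Of these steps, only the fit and the adjustment were tested on simulated data, drawn as gene values with changes of log2 1. In CC-CJ versus AA-CJ 94.5% of the changed genes were recovered and 3.57% of calls were false. The shares were 95.5% and 3.54% in CC-CJ versus CC, and 82.75% and 6.76% in CC versus AA-CJ.

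All 65 member names matched a current symbol in the RefSeq gene table, which with the promoters is of build GRCr8. Named are members that passed, per comparison the 3 highest and lowest of each family with the same sign on both arrays, all laminin chains, 8 common chains, and genes of 3 pathway lists that passed. Members outside this rule, such as other probes of Itgb1 and Col8a1, were named after their values were seen. The members and lists were chosen with earlier results of these data known. Same-numbered replicates of the 2 comparisons are not paired by the labels. CC-CJ levels correlated at 0.9979 or more between same-numbered arrays and at 0.9969 or less between arrays of other numbers. Whether the CC-CJ channels of the 2 comparisons hold the same RNA was not settled, so they do not count as separate replicates. Alternatives were tried for background, offset, normalization, filter, probe summary, arrays in the fit, prior, block and each replicate.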

Additional observations from a re-analysis of the deposited data

How the results depend on the processing

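The number of arrays and the correction for brightness limit these results. The counts of members called were 1 higher in CC-CJ versus AA-CJ, 1 lower in CC-CJ versus CC and 0 elsewhere. In CC-CJ versus AA-CJ the count higher became 0 with signals as Feature Extraction processed them, without background correction and with an offset of 16, became 2 with local regression, deposited processed values, every probe by itself, only the arrays of the comparison or an intensity trend, and became 3 with the brightest probe of each gene. In CC-CJ versus CC the count lower became 0 with Feature Extraction signals and with an offset of 16. In CC versus AA-CJ the count higher became 1 without background correction, with an offset of 16, with deposited processed values and with median centring, and 2 with local regression or an intensity trend. Apart from median centring, the calls these settings added were of Col2a1, Col5a2, Col8a1 and Itgb1. Median centring gave 17 higher and 10 lower in CC-CJ versus AA-CJ and 18 higher and 13 lower in CC-CJ versus CC, where it called 14638 and 13886 of 21326 genes and left the trend with brightness in place. The causes of the other changes were not tested.

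With a replicate block both counts of 1 became 0 and CC versus AA-CJ stayed at 0, with adjusted p-values from limma of 0.104 for Itga1 and 0.059 for Col1a2. Same-numbered arrays deviated against each other, with a correlation of -0.11 over genes, and crossing the numbers in the block gave 2 higher in CC-CJ versus AA-CJ, 3 lower in CC-CJ versus CC and 3 higher in CC versus AA-CJ, a choice made after seeing the data. Leaving out 1 array at a time gave 0 to 2 higher in CC-CJ versus AA-CJ, 0 to 2 lower in CC-CJ versus CC, and 0 to 1 in either direction in CC versus AA-CJ, where the lower gene with replicate 2 of the AA-CJ arrays left out was Itga7 at -0.82. Itga1 passed in 12 of 18 alternatives, with values of -0.03 to 1.04, and Col1a2 in 14 of 18, with values of -1.14 to -0.48.

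Under median centring, 22 values that passed in either setting changed sign, and no value did so under another setting. In CC-CJ versus AA-CJ, where the median of all genes was 0.24, they were -0.95 for Col3a1, -0.61 for Col1a1, -0.37 for Col5a2, -0.027 for Itga1, 0.39 for Col9a1, 0.46 for Col22a1, 0.53 for Itga5, 0.54 for Lamc3, 0.68 for Itga6, 0.72 for Lama3, 0.74 for Col14a1. In CC-CJ versus CC, where it was 0.25, they were -0.33 for Itgb4bp, 0.39 for Col6a2, 0.41 for Col2a1, 0.52 for Col9a1, 0.54 for Lamb3, 0.62 for Lama2, 0.72 for Col9a3, 0.78 for Col6a3, 0.89 for Itga10, 0.94 for Col4a3bp, 0.97 for Lamc3.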
